A study of Mus musculus with 12 samples.

Results

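The 10 genes *Acta2*, *Actg2*, *Tagln*, *Cnn1*, *Myh11*, *Myocd*, *Smtn*, *Lmod1*, *Mylk* and *Cald1* are commonly used as genes of the smooth muscle contractile apparatus. They were taken by name, and each was found among the 55471 genes measured by RNA-seq. Cells of the mouse ES line J1 (strain 129S4/SvJae) were compared with *Snap29* knockout (KO) cells of the same line, made with CRISPR/Cas9. Each genotype was measured as ESCs grown with serum and LIF, called day 0, and after 14 days of differentiation. Differentiation took 3 days in hanging drops without LIF and 11 days on plates. There were 3 libraries in each of the 4 groups. The study's results name the clone KO-2 for the ESC transcriptome, so KO at day 0 stands for 1 clone. No clone is named there for the day 14 libraries. The variation from clone to clone is therefore not part of the day 0 p values, and may not be part of those at day 14. The study describes its replicates as biological, and neither it nor the sample labels say whether these were separate cultures. If they were not, p values may reflect technical variation alone.

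In smooth muscle, contraction starts when a calcium-dependent kinase phosphorylates the light chains of smooth muscle myosin, which then pulls on actin filaments. Calponin and caldesmon bind these filaments and restrain the motor, and leiomodin helps to assemble them. The genes are classically switched on by serum response factor (SRF), which binds a DNA element called the CArG box, together with its coactivator myocardin or the related factors MRTF-A and MRTF-B. Several of the genes are also active outside smooth muscle. *Acta2* is transcribed in myofibroblasts and in developing heart and skeletal muscle, and *Cald1* has a non-muscle form.

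The CArG-like stretches of the *Acta2*, *Lmod1* and *Cald1* promoters are printed here because *Acta2* and *Lmod1* had the largest rises with differentiation among the tested genes in both genotypes, and *Cald1* rose as well. RefSeq promoter windows (250 bases before to 50 bases after a start, build mm10) were matched for 6 of the 10 genes, in 7 windows that did not overlap. *Actg2*, *Tagln*, *Myh11* and *Myocd* were not matched. Capitals mark 10 bases that fit the CArG box with at most 1 mismatch, read on both strands. Each sequence is 30 bases long and is written 5′ to 3′ on the strand of the gene.
*Acta2*, 84 bases before the start, chr19:34255438-34255467, minus strand: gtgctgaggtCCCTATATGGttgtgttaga
*Acta2*, 34 bases before the start, chr19:34255388-34255417, minus strand: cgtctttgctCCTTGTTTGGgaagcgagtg
*Lmod1*, 189 bases before the start, chr1:135324614-135324643, plus strand: gcccccttgtCTTTAAAAGGctaaactgct
*Lmod1*, 164 bases before the start, chr1:135324639-135324668, plus strand: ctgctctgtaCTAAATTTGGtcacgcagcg
*Cald1*, 203 bases before the start, chr6:34598291-34598320, plus strand: acggtttcaaGCTTTTTAGGacttggtttt

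Of the 7 windows, 3 held such a stretch, against 21.1% of all 32851 RefSeq promoters. A CArG box without mismatch was in 0 of the 7 windows and in 1.63% of all promoters. The letters CATTCC, the core of the element bound by TEAD factors, were found on either strand in 5 of the 7 windows, those of *Acta2*, *Lmod1*, *Cald1*, *Smtn* and *Mylk*, against 14.7% of all promoters. No CATTCC overlapped a CArG-like stretch. The RefSeq start of *Acta2* lies 217 bases inside the start of the gene as the files give it. Both *Acta2* stretches therefore fall within an exon of the files' gene model. These matches are descriptions of letters and not measured sites.

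Libraries held 16638790 to 19226488 fragments assigned to genes. *Snap29* had 5.51 to 6.59 FPKM (fragment counts divided by gene length and library size, as scaled by the authors) in WT and 0.415 to 0.657 FPKM in KO ESCs. At day 14 it had 8.09 to 9.88 FPKM in WT, against 1.87 to 2.31 FPKM in KO. *Atrx*, which encodes a chromatin remodeller, was also low in KO, with 0.0874 to 0.178 FPKM over both days. The effects of losing either gene cannot be told apart here. WT day 14 replicate 3 stood apart from its group. *Atrx* measured 6.24 FPKM there and 12.6 FPKM in each of the other WT day 14 libraries, and *Acta2*, *Lmod1* and *Tagln* were at least 2 times as high there as in either. Counts of calls at day 14 are given with and without this library, and single values where a call changed.

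**Figure D1:**
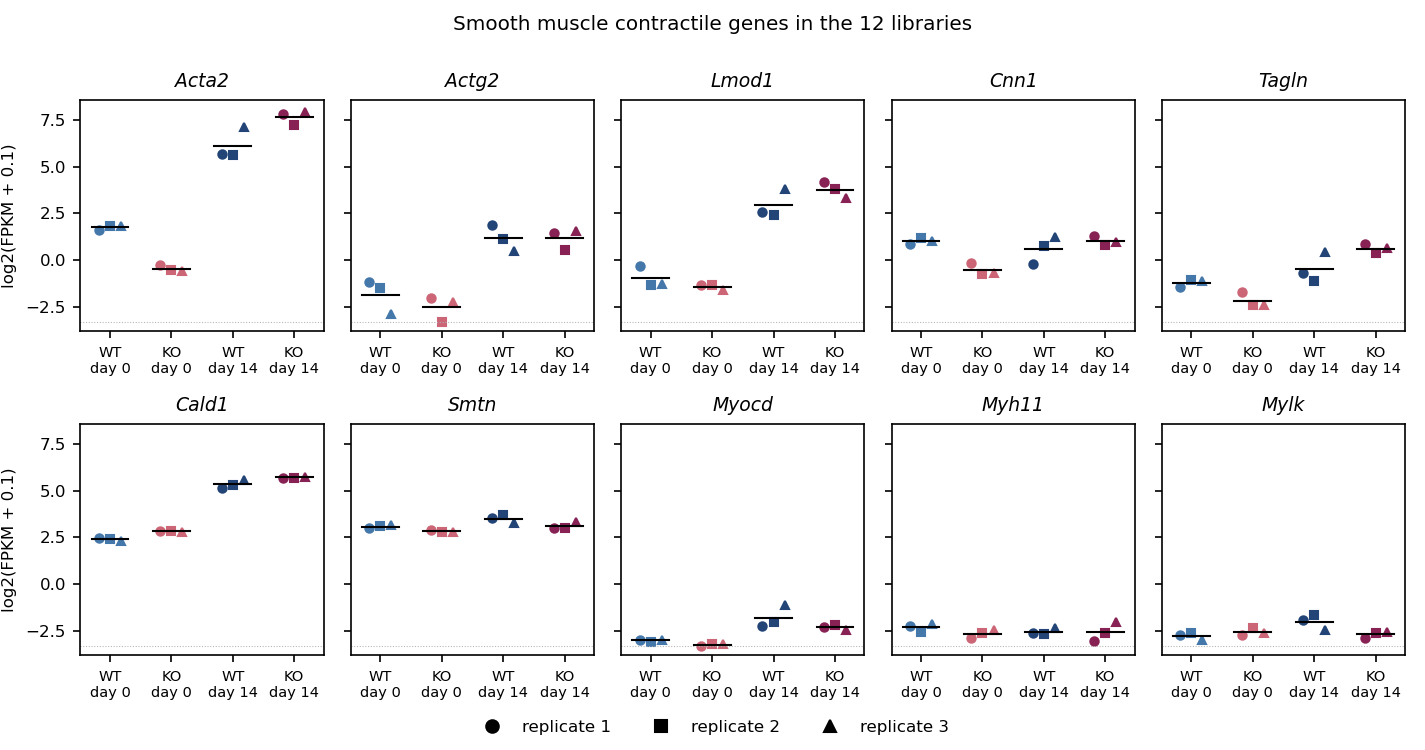
Level of each of the 10 genes in the 12 libraries, as log2(FPKM + 0.1). Each point is a library with its replicate number as the symbol, the black line is the group mean on this scale, and the dotted line marks 0 FPKM. *Acta2* was lower in all KO than in all WT libraries at day 0 and higher in all of them at day 14, while *Myh11* and *Mylk* stayed near the dotted line in every group.

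Among the actins, *Acta2*, on chromosome 19 from 34241090 to 34255590, encodes smooth muscle alpha-actin. In WT ESCs it measured 2.99, 3.38 and 3.41 FPKM, and in KO ESCs 0.726, 0.600 and 0.567 FPKM. In differentiated cells the levels were 50.5, 49.4 and 137 FPKM in WT, against 225, 153 and 240 FPKM in KO. The groups did not overlap at either day, with KO below WT at day 0 and above WT at day 14. Among the 17713 genes tested at both days, 2.50% had this order.

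*Actg2*, which encodes the gamma-actin of enteric smooth muscle, stayed far lower. It measured 0.336, 0.261 and 0.0349 FPKM in WT ESCs and 0.146, 0 and 0.109 FPKM in KO ESCs, from 1 to 9 and from 0 to 4 fragments. At day 14 its values were 3.61, 2.06 and 1.32 FPKM in WT, against 2.64, 1.34 and 2.79 FPKM in KO. WT and KO overlapped at both days. Reads of the actins can be told apart for the most part, since 7 of the 1986 stretches of 50 bases in *Acta2* transcripts (0.352%) were shared with *Actg1* and 0 of 1284 in *Actg2* with any other actin.

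The proteins that bind the thin filament took very different levels. *Cald1*, caldesmon, was even within groups. It measured 5.37, 5.16 and 4.92 FPKM in WT, against 7.02, 7.18 and 6.91 FPKM in KO ESCs. By day 14 it stood at 34.7, 39.2 and 48.4 FPKM in WT, against 52.1, 52.1 and 53.2 FPKM in KO. All KO libraries were above all WT libraries at both days, an order that 19.9% of genes had at day 0 and 15.1% at day 14. *Lmod1*, leiomodin 1, measured 0.692, 0.294 and 0.316 FPKM in WT, against 0.303, 0.290 and 0.230 FPKM in KO ESCs. After differentiation it had 5.93, 5.16 and 13.98 FPKM in WT, against 18.0, 13.9 and 9.80 FPKM in KO. WT replicate 3 lay within the KO range, and the other WT libraries lay below it.

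*Cnn1*, calponin 1, measured 1.74, 2.16 and 1.94 FPKM in WT, against 0.791, 0.502 and 0.518 FPKM in KO ESCs. At day 14 the WT libraries spread from 0.758 through 1.56 to 2.29 FPKM, and the KO libraries had 2.31, 1.62 and 1.86 FPKM. The groups were apart at day 0 and overlapped at day 14. *Smtn*, smoothelin, had the highest level of the 10 genes in WT ESCs, with 7.79, 8.43 and 8.86 FPKM against 7.26, 6.79 and 6.89 FPKM in KO ESCs. After 14 days it had 11.4, 12.8 and 9.43 FPKM in WT, against 7.94, 7.90 and 9.95 FPKM in KO. Of its exon bases, 16.3% are shared with other annotated genes.

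*Tagln*, transgelin or SM22, is among the most abundant transcripts of mature smooth muscle, but its FPKM was low throughout. It measured 0.263, 0.379 and 0.355 FPKM in WT, against 0.201, 0.0864 and 0.0855 FPKM in KO ESCs, from 3 to 13 fragments. In differentiated cells the levels were 0.522, 0.361 and 1.26 FPKM in WT, against 1.71, 1.18 and 1.46 FPKM in KO, from 15 to 66 fragments. Of the 1988 exon bases of *Tagln*, 1349 (67.9%) are also exon bases of *Pcsk7* or *Gm48529*, which are annotated on the opposite strand. Whether counting used strand or dropped reads that fit several genes is not given in the sources used here, and the part of this overlap in the level of *Tagln* was not tested. Its level is therefore uncertain, and *Acta2* FPKM was 96.8 to 165 times that of *Tagln* in the day 14 libraries.

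The motor, the kinase and the coactivator had low counts, with at most 50 fragments in any library. *Myh11*, the smooth muscle myosin heavy chain and the marker most restricted to that tissue, measured 0.0687 to 0.129 FPKM in WT ESCs and 0.0375 to 0.0820 FPKM in KO ESCs. At day 14 its values were 0.0647, 0.0566 and 0.0922 FPKM in WT, against 0.0203, 0.0605 and 0.141 FPKM in KO. No library held more than 20 *Myh11* fragments, and the days overlapped in both genotypes. *Mylk*, the myosin light chain kinase, measured 0.0516, 0.0618 and 0.0241 FPKM in WT, against 0.0506, 0.0966 and 0.0603 FPKM in KO ESCs. It later had 0.165, 0.212 and 0.0800 FPKM in WT, against 0.0365, 0.0635 and 0.0667 FPKM in KO at day 14. The KO libraries were below all WT libraries, as for 11.4% of the genes tested, with 36 against 102 fragments in all. In WT *Mylk* had 102 fragments at day 14 against 27 at day 0 (ratio 3.37, exact 95% counting interval 2.19 to 5.37). Single WT libraries held 18 to 50 of them at day 14 and 5 to 12 at day 0. In KO the days overlapped (36 against 41 fragments). *Myocd*, myocardin, was covered by 8 fragments over the 3 WT and 2 over the 3 KO ESC libraries (KO to WT ratio 0.251 after scaling by the library size used for FPKM, exact 95% counting interval 0.0260 to 1.26). By day 14 it stood at 0.110, 0.141 and 0.366 FPKM in WT, against 0.104, 0.119 and 0.0835 FPKM in KO, and 47 of the 79 WT fragments came from replicate 3. Such intervals cover counting error only.

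The order of the genes by FPKM, a level per gene length, changed with differentiation. In WT ESCs *Smtn*, *Cald1*, *Acta2* and *Cnn1* followed each other with no overlap between neighbours, and in KO ESCs *Cald1* and *Smtn* overlapped, as did *Acta2* and *Cnn1*. At day 14 *Acta2* and *Cald1* were first and second in both genotypes, each apart from its neighbours, and *Smtn* and *Lmod1* overlapped below them. *Acta2* made up 15.4% to 17.0% of the summed FPKM of the 10 genes in WT and 3.67% to 4.39% in KO ESCs. At day 14 its share was 46.9%, 44.5% and 64.0% in WT and 72.6%, 66.1% and 75.1% in KO. The summed level at day 14 was thus mostly that of 1 actin and of caldesmon. *Myh11*, *Mylk* and *Myocd* had at most 0.366 FPKM in any library. The 10 genes are therefore described here by name and not as a smooth muscle cell type.

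The first comparison asked how the genes changed as ESCs differentiated. In WT, 8 genes were tested, of which *Myocd* reached the filter of 0.1 FPKM only through the day 14 libraries. *Actg2* reached 0.1 FPKM in 2 of the WT day 0 libraries and met the filter with those of day 14. Of the 8, 6 were called higher at day 14 than at day 0 (limma, adjusted p under 0.05), where 29.0% of the 20326 genes tested were higher and 26.4% lower. *Myocd* and *Actg2* were among them, so the count of 6 is a description. *Acta2* rose most, by 4.38 on the log2 scale of FPKM + 0.1 (SE 0.38, adjusted p = 1.18e-04 by limma, 3 of 3 libraries). *Lmod1* rose by 3.92 (SE 0.44), *Actg2* by 3.02 (SE 0.54) and *Cald1* by 2.95 (SE 0.13). *Smtn* rose by 0.41 (SE 0.13, adjusted p = 0.0309 by limma). The fitted change of *Myocd* was 1.22 (SE 0.37, adjusted p = 0.0269 by limma), which is given as a description, since a gene that passed the filter only in the group where it was high had to differ. The *Smtn* call was lost without WT day 0 replicate 1, 2 or 3 or WT day 14 replicate 1 or 2 (adjusted p 0.0599 to 0.106). It was also lost in 2 of 10 other alternatives (adjusted p up to 0.124 by limma). The *Myocd* call was lost without WT day 0 replicate 1, 2 or 3 (adjusted p 0.0669 to 0.0755), and in 2 of 9 other alternatives (up to 0.258 by limma). Without WT day 14 replicate 3 the same count of 6 was found. *Tagln* (0.77, adjusted p = 0.165 by limma) and *Cnn1* (-0.44, adjusted p = 0.341 by limma) did not pass.

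In KO, the 7 tested genes were all called higher at day 14, where 33.5% of 20347 genes were higher and 29.8% lower. *Tagln* and *Actg2* reached 0.1 FPKM in 1 and 2 of the KO day 0 libraries and met the filter with those of day 14, so the count of 7 is a description. *Acta2* rose by 8.12 (SE 0.18, adjusted p = 2.52e-07 by limma), from a mean of 0.631 ± 0.0840 FPKM to 206 ± 46.7 FPKM (SD, n = 3). *Lmod1* rose by 5.19 (SE 0.23), *Actg2* by 3.71 (SE 0.43), *Cald1* by 2.88 (SE 0.049), *Tagln* by 2.81 (SE 0.27) and *Cnn1* by 1.54 (SE 0.22), with adjusted p values by limma from 1.03e-07 to 8.00e-04. *Smtn* rose by 0.29 (adjusted p = 0.0441 by limma), and without KO day 0 replicate 1, 2 or 3 its adjusted p was 0.0762 to 0.116. The *Smtn* call was also lost in 4 of 10 other alternatives (adjusted p up to 0.163 by limma). *Myh11*, *Myocd* and *Mylk* were below the filter on low values. With 3 libraries against 3, the smallest p of an exact two-sided permutation test is 0.1. In bulk RNA, more cells that transcribe a gene and more RNA per cell cannot be told apart.

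The second comparison asked what differed between KO and WT ESCs. Of the 7 tested genes, 3 were lower in KO (10.4% of 19238 genes were lower) and 1 was higher (11.0% were higher). Compared with WT, *Acta2* stood at 19.4% (-2.20 on the log2 scale, SE 0.13, adjusted p = 1.35e-04 by limma) and *Cnn1* at 31.0% (-1.56, SE 0.19, adjusted p = 0.00221 by limma). Both were lower in 3 of 3 KO libraries and passed in every alternative run. *Smtn* was lower by a small step (log2 change -0.26, SE 0.064, adjusted p = 0.0312 by limma). That call was lost when any KO library was left out, and likewise for WT replicates 2 and 3 (adjusted p 0.0582 to 0.0942). It was also lost in 4 of 10 other alternatives, with adjusted p up to 0.465 by limma.

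*Cald1* was the gene that rose in KO ESCs, to 137% of WT (0.44 on the log2 scale, SE 0.057, adjusted p = 0.00251 by limma). *Tagln* had all KO below all WT libraries, as did 20.0% of genes, and did not pass (log2 change -0.98, SE 0.29, adjusted p = 0.0585 by limma). It met the filter of 0.1 FPKM through WT, with 3 WT libraries and 1 KO library at that level, so its change is a description. Without KO replicate 1, the KO library at that level, it passed (adjusted p = 0.0456 by limma), which is a description too. *Lmod1* (-0.44, SE 0.32) and *Actg2* (-0.68, SE 0.56) overlapped between genotypes and did not pass. The median change of the 7 tested genes was -0.68, which is the value of *Actg2*, beside -0.00434 over all genes tested. This median is a description, since *Actg2* did not pass and *Tagln* met the filter through WT.

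The third comparison asked the same at day 14, and here the count depended on WT day 14 replicate 3 and on the model. With all libraries, 0 of the 8 tested genes passed, where 1.45% of 20506 genes were higher and 0.883% lower. At an unadjusted p under 0.05 there were 4 of 8, 3 higher and 1 lower, where 20.5% of all genes passed in either direction, and voom on fragments recovered from the FPKM called 0. With all libraries kept, 2 genes (*Acta2* and *Cald1*) were higher when all 4 groups shared 1 fit. That fit called 6.69% of all genes higher and 4.62% lower. With library weights 4 were higher and 1 lower, where 17.2% of all genes were higher and 12.3% lower. The KO mean of *Acta2* was 2.61 times that of WT (1.53 on the log2 scale, SE 0.41, adjusted p = 0.106 by limma) with all KO above all WT libraries. *Cald1* also had all KO above all WT libraries (0.38, SE 0.13, adjusted p = 0.166 by limma).

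Without WT day 14 replicate 3, 4 of the 8 genes were higher in KO and 0 lower, where 8.80% of all genes were then higher and 5.00% lower. They were *Acta2* (log2 change 2.01, adjusted p = 0.00683 by limma), *Tagln* (1.52, adjusted p = 0.0217), *Lmod1* (1.27, adjusted p = 0.0288) and *Cald1* (0.51, adjusted p = 0.0171). The library left out was set apart in part by its high *Acta2*, *Lmod1* and *Tagln*, so these calls are a description. In the other 5 runs that left out 1 day 14 library, 0 of the 8 genes were called. Of all genes, 0.0780% to 0.254% were higher in those runs and 0.137% to 0.205% lower. With all libraries *Tagln* was at 1.07 (adjusted p = 0.210 by limma) and *Lmod1* at 0.83 (adjusted p = 0.292). *Smtn* was at -0.37 (adjusted p = 0.228), *Cnn1* at 0.42 (adjusted p = 0.555), *Myocd* at -0.51 (adjusted p = 0.487) and *Actg2* at 0.00 (SE 0.41, adjusted p = 0.997), all by limma. Counted in fragments, *Mylk* in KO stood at 0.362 times WT (exact 95% counting interval 0.241 to 0.535) and *Myh11* at 1.03 times (0.609 to 1.73), intervals that leave out the spread between libraries.

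**Figure D2:**
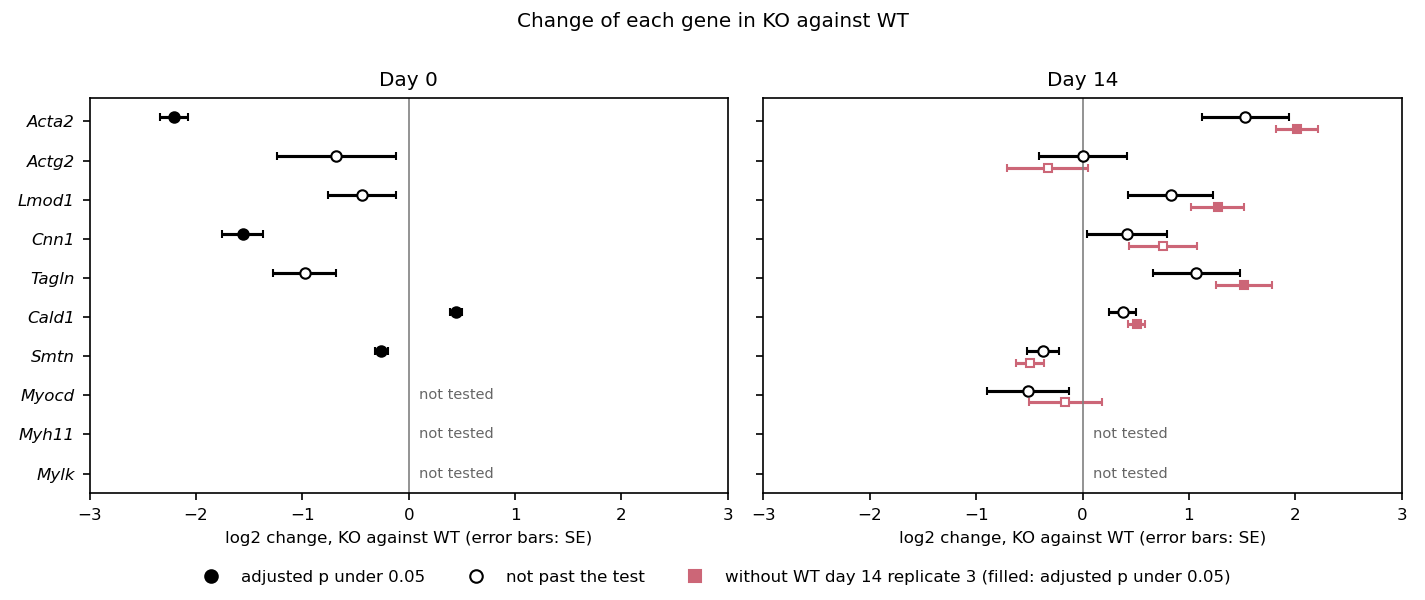
Change of each gene in KO against WT at day 0 and day 14, as the difference of log2(FPKM + 0.1) with its SE from limma. Circles use all libraries (filled: adjusted p under 0.05) and squares leave out WT day 14 replicate 3. *Acta2* stood at -2.20 at day 0 and at 1.53 at day 14, or 2.01 without that library.

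Whether KO acted differently at day 0 and day 14 was tested directly in a fit of all 12 libraries. Of the 9 tested genes, 3 had a KO effect that was higher at day 14 than at day 0, where 4.22% of 22913 genes did, and 0 had a lower one (2.91% of genes). The difference was 3.73 for *Acta2* (SE 0.46, adjusted p = 0.00133 by limma), 2.05 for *Tagln* (SE 0.52, adjusted p = 0.0416) and 1.98 for *Cnn1* (SE 0.45, adjusted p = 0.0258). A negative change at day 0 and a positive one at day 14 were found for *Acta2*, *Tagln*, *Cnn1* and *Lmod1*, and for 25.1% of the 17713 genes tested at both days. *Actg2* had a change of 0.00 at day 14 whose sign turned with the scaling. With the tested difference the turn held for *Acta2*, *Tagln* and *Cnn1*, and for 4.13% of all. *Acta2* passed in every alternative run. Without any 1 library *Tagln* ranged over adjusted p values up to 0.0986 and failed in each case but those without KO day 0 replicate 1 or WT day 14 replicate 3. Of 9 other alternatives, *Tagln* also failed in 5, with no filter (adjusted p = 0.126), a pseudocount of 1, TPM, voom and the replicate block, and *Cnn1* in 3, with no filter (adjusted p = 0.0970), TPM and the block. *Cnn1* failed without WT day 0 replicate 1, 2 or 3, KO day 0 replicate 2 or 3 or KO day 14 replicate 1 (adjusted p 0.0505 to 0.0675).

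*Lmod1* did not pass (1.27, SE 0.54, adjusted p = 0.186 by limma), and it did without WT day 14 replicate 3 (1.71, adjusted p = 0.0211), where 4 genes passed and 10.5% of all genes were higher. That library was set apart in part by its *Lmod1* level, so this pass is a description. *Cald1* showed no such turn, with KO above WT at both days and a difference of -0.07 (SE 0.14, adjusted p = 0.824 by limma). For *Smtn* (-0.12, SE 0.17), *Actg2* (0.68, SE 0.74), *Myh11* (0.30, SE 0.42) and *Myocd* (-0.29, SE 0.43) the difference did not pass either. *Mylk* was below the filter of 0.1 FPKM in each of the 5 comparisons.

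Among the other actin and myosin genes, *Acta1*, the skeletal muscle actin, had its groups in the same order as *Acta2*. It measured 2.95, 3.59 and 3.22 FPKM in WT, against 1.30, 0.746 and 0.811 FPKM in KO ESCs. After differentiation it had 18.2, 16.1 and 53.2 FPKM in WT, against 169, 145 and 159 FPKM in KO. It was lower in KO at day 0 (log2 change -1.70, adjusted p = 0.00191 by limma) and higher at day 14 (2.65, SE 0.42, adjusted p = 0.0344). *Actc1*, the cardiac actin, fell in KO ESCs (log2 change -3.70, adjusted p = 2.30e-04 by limma) to at most 0.0354 FPKM. After 14 days it had 23.1, 7.86 and 41.6 FPKM in WT, against 72.0, 54.7 and 108 FPKM in KO (1.93, SE 0.58, adjusted p = 0.137 by limma, and 2.47, adjusted p = 0.0292, without WT day 14 replicate 3). The cytoplasmic actins *Actb* and *Actg1* were the most abundant of this list, with day 14 means of 648 and 745 FPKM in WT, against 755 and 933 in KO.

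Of the 18 paralogues of actins, myosins, leiomodins, transgelins, smoothelins and myosin kinases, 13 were tested at day 0 (6 lower, 1 higher, median change -0.21), where 10.4% of all genes were lower and 11.0% higher, and 17 at day 14 (1 higher, 0 lower, median 0.34), where 1.45% and 0.883% were higher and lower. Without WT day 14 replicate 3, 4 were higher and 1 lower at day 14, where 8.80% of all genes were higher and 5.00% lower. The KO effect was higher at day 14 for 5 of 17 (4.22% of all genes) and lower for 0. Without that library it was higher for 6 (10.5% of all genes) and lower for 1 (8.59%).

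**Figure D3:**
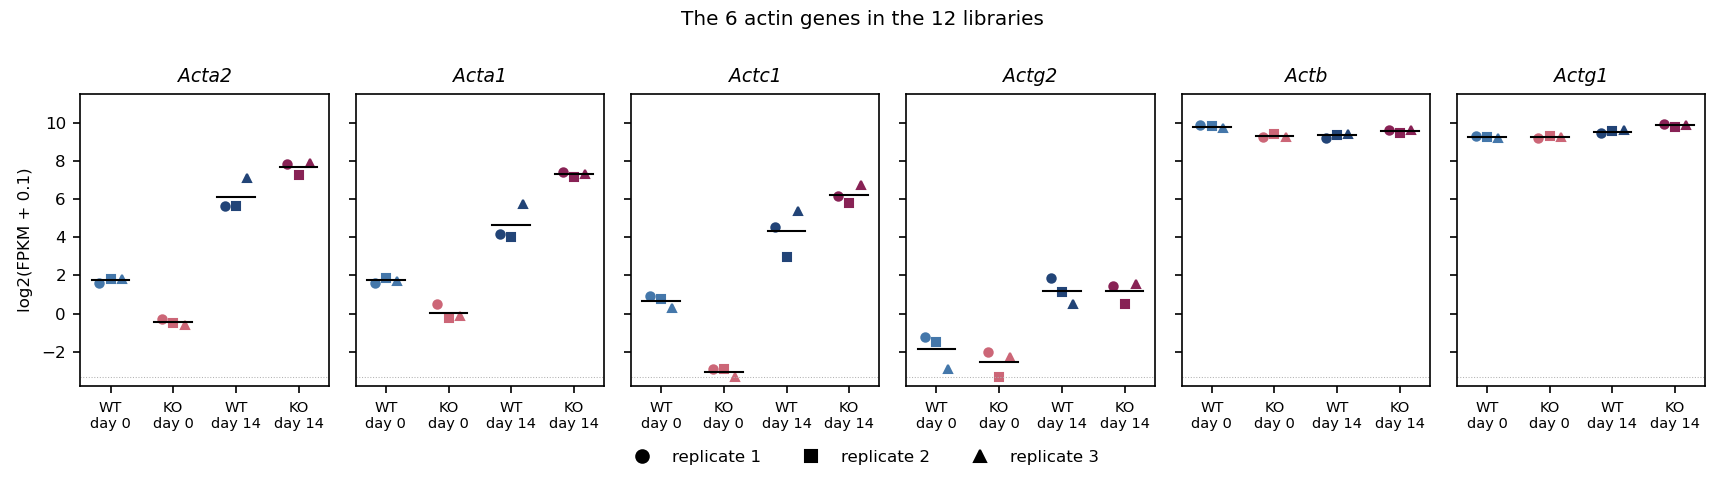
Level of the 6 actin genes in the 12 libraries, as log2(FPKM + 0.1), with symbols for replicates, a black line for the group mean and a dotted line at 0 FPKM. *Acta2*, *Acta1* and *Actc1* had all KO libraries below all WT libraries at day 0 and above them at day 14, *Actg2* overlapped between genotypes, and *Actb* and *Actg1* lay far above the others in ESCs.

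The 28 partners of thin filament and myosin (tropomyosins, light chains, filamin, LIM proteins and others) were all tested. In KO ESCs 13 were lower (10.4% of all genes) and 1 was higher (11.0%), with a median change of -0.31. At day 14, 2 were higher and 0 lower, with a median of 0.34 beside 0.03 over all genes, where 1.45% of all genes were higher. Without WT day 14 replicate 3 there were 13 higher, where the share of all genes was 8.80%. *Des*, desmin, rose from 21.9 ± 5.02 to 42.0 ± 3.55 FPKM (SD, n = 3; log2 change 0.96, adjusted p = 0.0403 by limma). *Fhl1*, a LIM protein of muscle, rose from 31.2 ± 2.68 to 43.6 ± 1.43 FPKM (0.48, adjusted p = 0.0489 by limma). *Tagln2* (0.47, adjusted p = 0.135) and *Csrp1* (0.43, adjusted p = 0.104), the most abundant of the list, did not pass, and without WT day 14 replicate 3 *Csrp1* did (0.51, adjusted p = 0.0292). *Des*, like *Cald1*, was also higher in KO ESCs (log2 change 1.06, adjusted p = 9.14e-05 by limma). The KO effect was higher at day 14 for 7 of the 28 (4.22% of all genes) and lower for 0. Without WT day 14 replicate 3 it was higher for 15 (10.5% of all genes) and lower for 0.

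Among the regulators, *Srf*, the factor that binds the CArG box, measured 23.6, 21.3 and 21.5 FPKM in WT, against 16.8, 16.2 and 16.8 FPKM in KO ESCs (log2 change -0.41, adjusted p = 0.00220 by limma). In differentiated cells the levels were 12.4, 12.7 and 14.1 FPKM in WT, against 16.8, 14.3 and 16.3 FPKM in KO (0.27, adjusted p = 0.207), and the difference between the days was 0.68 (adjusted p = 0.00528 by limma). *Srf* lay below WT at day 0 and above WT at day 14 in all KO libraries, as did 2.50% of the 17713 genes tested at both days. At day 14 the gap was narrow, from 14.1 FPKM in the highest WT to 14.3 FPKM in the lowest KO library. *Mrtfa* (0.04, adjusted p = 0.902) and *Mrtfb* (-0.17, adjusted p = 0.712) did not pass at day 14, nor did *Klf4*, a factor known to repress smooth muscle genes (0.57, adjusted p = 0.217, by limma). Of the 22 regulators, 16 were tested at day 0 (1 higher and 4 lower, beside 11.0% and 10.4% of all genes) and 21 at day 14 (0 in either direction, and 4 lower without WT day 14 replicate 3, beside 5.00% of all genes). *Prrx1*, a mesenchymal homeobox factor, had the smallest adjusted p of them at day 14 (-1.73, adjusted p = 0.0606 by limma, and -2.03, adjusted p = 0.0186, without that library).

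Of 18 ligands, receptors and signal transducers linked to smooth muscle induction, 18 were tested at day 14 and 0 passed. When WT day 14 replicate 3 was left out, 3 were higher and 3 lower, where 8.80% and 5.00% of all genes were. In ESCs 5 of 15 were higher in KO and 1 lower, where 11.0% and 10.4% of all genes were. One of the 5 was *Smad7*, an inhibitory transducer named here after its values were seen. *Pdgfrb* had 5.89 FPKM in WT and 3.50 FPKM in KO at day 14 (-0.71, adjusted p = 0.104 by limma), and *Jag1*, a Notch ligand, had 6.28 and 3.26 FPKM (-0.89, adjusted p = 0.101). Both were lower without WT day 14 replicate 3 (-0.52, adjusted p = 0.0487, and -1.14, adjusted p = 0.0125, by limma). Of 13 ion channels and receptors of smooth muscle, 8 passed the filter at day 14 and 0 of these were called, or 1 lower without that library. The most abundant, *Gucy1b1* and *Itpr1*, had means of 1.72 to 2.64 FPKM.

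Markers of other cell types moved with genotype at day 14, and their part in the results was not tested. The summed level of 8 skeletal muscle markers was 26.9 to 87.0 FPKM in WT, highest in replicate 3, and 181 to 215 FPKM in KO. Without *Acta1* the other 7 summed to 10.8 to 33.8 FPKM in WT, below the KO sums of 36.0 to 56.0 FPKM. *Myog*, a factor that defines this lineage, measured 7.38, 2.37 and 16.2 FPKM in WT, against 22.0, 15.9 and 26.6 FPKM in KO. The sum of 10 cardiomyocyte markers was 19.2 to 49.4 FPKM in WT, against 65.3 to 124 FPKM in KO. Without *Actc1* the other 9 summed to 7.82 to 17.7 FPKM in WT and overlapped with 10.6 to 15.5 FPKM in KO, and the median change of the tested list was 0.09, or -0.44 without WT day 14 replicate 3. Of these lists, 1 of 6 tested skeletal muscle markers and 0 of 9 tested cardiomyocyte markers were higher in KO, and 0 were lower. Over all genes 1.45% were higher and 0.883% lower. The counts of higher markers were 5 and 2 without WT day 14 replicate 3, where 8.80% of all genes were higher.

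The 9 fibroblast markers summed to 130 to 142 FPKM in WT, against 79.8 to 89.7 FPKM in KO, with *Col1a1* lower in KO and *Thy1* higher among 8 tested. The 7 mural or pericyte markers summed to 28.1 to 33.3 FPKM in WT, against 34.2 to 38.9 FPKM in KO. Without *Mcam* the order was the other way, with 15.5 to 18.8 FPKM in WT and 11.4 to 13.1 FPKM in KO. Among 5 tested, *Mcam* was higher, and *Rgs5*, a pericyte marker, fell from 2.56 to 0.113 FPKM (-3.34, SE 0.61, adjusted p = 0.0470 by limma). The 7 trophoblast markers summed to 265 to 463 FPKM in WT, against 138 to 163 FPKM in KO, and 5 of 7 were lower. Without *Hand1*, which had 118 to 160 FPKM in WT and 133 to 154 FPKM in KO, the sums were 148 to 303 FPKM in WT and 4.24 to 9.70 FPKM in KO. The 6 endothelial markers summed to 19.1 to 49.8 FPKM in WT, against 12.4 to 15.9 FPKM in KO, and 1 of 5 tested was lower. The 6 yolk sac endoderm markers summed to 4.87 to 28.8 FPKM in WT, against 0.793 to 1.28 FPKM in KO, and 1 of 6 was lower. Without WT day 14 replicate 3 the markers called at day 14 were 2 higher and 4 lower for fibroblast, 1 and 2 for mural or pericyte, 0 and 5 for trophoblast, 0 and 2 for endothelial and 0 and 4 for yolk sac endoderm. Over all genes 8.80% were then higher and 5.00% lower, beside 1.45% and 0.883% with all libraries. None of the 9 marker lists had a member at 0 in all libraries of a day 14 group. The 6 pluripotency markers summed to 507 to 685 FPKM in WT, against 682 to 737 FPKM in KO, below the 1676 to 1817 FPKM over all ESC libraries. The 6 neural markers summed to 18.0 to 24.1 FPKM in WT, against 29.7 to 34.6 FPKM in KO. Without *Stmn2*, which was called higher in KO, they overlapped, with 12.2 to 14.1 FPKM in WT and 12.6 to 16.6 FPKM in KO.

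Within day 14 some of the genes followed each other across the 6 libraries. *Acta2* and *Tagln* had a Pearson r of 0.97 on the log2 scale, *Acta2* and *Cald1* 0.95, *Tagln* and *Lmod1* 0.92, and *Acta2* and *Lmod1* 0.85. *Smtn* and *Mylk*, which were lower in most KO libraries, had 0.93, whereas *Acta2* and *Actg2* had -0.19. Others ran opposite, with -0.98 for *Tagln* and *Mylk*, -0.95 for *Acta2* and *Mylk*, -0.95 for *Smtn* and *Lmod1* and -0.80 for *Acta2* and *Smtn*. These libraries share genotype and differentiation as sources of variation, so the values are descriptions over 6 points. The genes whose day 14 levels were most like the mean profile of all 10 were *Fahd1*, *Kat5*, *Taf1a*, *Nup50* and *Ptdss2* (r of 0.98 for each, over 6 libraries and 14096 genes). Over all 12 libraries they were *Unc5b*, *Hif1an*, *Foxn3*, *Zfp608* and *Gbp2* (r of 0.99 for each, over 14103 genes). The mean profile, an average over genes that ran opposite to each other, did not separate the genotypes at day 14, with WT replicate 3 at 0.33 and KO replicate 2 at -0.13 in mean z-score.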

How the data were processed

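Poly(A) RNA-seq of 12 libraries was used. The sample labels gave 4 groups of 3. The authors computed FPKM values, and their deposited tables, 1 for each library, were taken as they are. According to the submitters' processing notes, reads were aligned to mm10 with HISAT2 2.0.5 and counted with featureCounts 1.5.0-p3. The annotation release and the counting strand are not given in the sources used here. FPKM times gene length was a whole multiple of 1 step for 100% of genes (within 0.001), which gave fragment counts. Among 66 pairs of libraries, 0 held identical values. Fragments assigned to genes ranged from 16638790 to 19226488 per library, so that 0.1 FPKM can rest on a few fragments.

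The limma package (version 3.58.1, R 4.3.3; eBayes with a trend after lmFit) was run on log2(FPKM + 0.1), a scale that understates changes of low genes. A gene was tested if 3 or more libraries of the comparison had 0.1 FPKM or more. Calls were made under an adjusted p of 0.05 (Benjamini-Hochberg, all tested genes). The script was tested on simulated data. GENCODE vM21 held 99.4% of the gene IDs and served for exon overlaps. Promoters were RefSeq's for mm10. The 10 genes and the lists were chosen with earlier results of these data known. Named genes are the 10, up to 4 per list with the smallest adjusted p at day 14, the 2 most abundant per list, 5 of like pattern for each span, *Snap29*, *Atrx*, *Srf*, *Mrtfa*, *Mrtfb* and *Klf4*. Alternatives were pseudocounts of 0.01 and 1, filters of 1 FPKM and none, TPM and median ratio scaling, voom on the recovered fragments, all 4 groups in 1 fit, library weights, the replicate number as a block, and leaving out each library.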

Additional observations from a re-analysis of the deposited data

Results flagged for a closer look

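For 3 genes the effect of KO differed between day 0 and day 14 in a direct test (limma, adjusted over 22913 genes). The KO change at day 14 minus that at day 0, on the log2 scale, was 3.73 for *Acta2*, 2.05 for *Tagln* and 1.98 for *Cnn1*. Of these, *Acta2* was lower in 3 of 3 KO libraries at day 0 and higher in 3 of 3 at day 14. *Tagln* was lower in 3 of 3 and above all WT libraries in 2 of 3, and rested on 3 to 66 fragments per library. *Cnn1* was lower in 3 of 3 and above all WT libraries in 1 of 3. *Acta2* passed in all alternatives run, whereas *Tagln* failed in 5 of 9 and *Cnn1* in 3 of 9, besides fits without single libraries.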

How the results depend on the processing

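For the 20 called results of single genes, 334 alternative values were computed, of which 282 stayed past the threshold, 52 fell short of it and 0 turned direction. For the 19 results not called, 16 of 327 values passed and 15 turned. At day 14 the 0 genes higher in KO became 2 with all 4 groups in 1 fit (*Acta2*, *Cald1*), 4 with library weights and 0 to 4 when 1 library was left out, and the 0 lower became 1 with weights (*Smtn*). Of all genes, 6.69%, 17.2% and 0.0780% to 8.80% were then higher, and 12.3% were lower with weights. With weights 1 gene (*Cnn1*) was lower at day 14 in WT, against 0, where 33.5% of all genes were lower. The 3 genes with a higher KO effect at day 14 became 1 (*Acta2*) with no filter and with TPM, and 1 to 4 when 1 library was left out. Of all genes, 0.959%, 1.09% and 2.23% to 10.5% had a higher effect in these runs. Replicate numbers did not pair the libraries (correlations of same-numbered libraries from -0.28 to 0.03). With the replicate number as a block, the count of 3 became 1 (2.37% of all genes), and *Smtn* lost its calls at day 0 and between days.

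*Actg2* at day 14 (0.00) turned to -0.00485 with a pseudocount of 1, -0.14 with TPM, -0.0216 with median ratio scaling and -0.77 with weights, and lay between -0.33 and 0.37 when 1 library was left out. Its difference between days turned to -0.21 with weights. That of *Myocd* turned to 0.35 with a pseudocount of 0.01, 0.78 with voom and 0.15 with weights, and lay between -0.51 and 0.0618 when 1 library was left out, the latter without WT day 14 replicate 3. That of *Cald1* turned to 0.11 with weights and lay between -0.18 and 0.0646 when 1 library was left out, the latter without the same library. The causes were not tested. TPM scaling moved the median of all genes by 0.12 at day 0, -0.15 at day 14 and -0.26 for the difference between days.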
